A study of Homo sapiens with 9 samples.

Results

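The 10 genes described here are DUSP4, DUSP5, DUSP6, SPRY2, SPRY4, SPRED1, SPRED2, ETV4, ETV5 and PHLDA1. They were taken by name from a list of genes that answer to the MAP kinase ERK, and all 10 were found among the 36753 Ensembl identifiers with deposited values. The samples were PANC-1 cells, a widely used human cell line derived from a pancreatic carcinoma. RNA was taken 48 hours after transfection with a small interfering RNA (siRNA) against SIRT6 (siSIRT6), one against KDM5C (siKDM5C), or a control, which the column headers name siNC. Each group had 3 libraries. SIRT6 encodes a histone deacylase that uses NAD, and KDM5C a demethylase of lysine 4 of histone H3. The comparisons ask which transcripts change when either enzyme is lowered. Whether the 3 replicates of a group were cultured separately is not stated, so p-values measure only the spread between these libraries, which may be technical.

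In the ERK pathway, growth factor receptors activate RAS, which passes the signal through RAF and MEK to ERK. Active ERK induces the transcription of its own brakes. Phosphatases of the DUSP family remove the activating phosphates from ERK, while Sprouty (SPRY) and Spred proteins act further up, between the receptor and RAF. ETV4 and ETV5, factors of the ETS family, are induced by ERK and carry part of its transcriptional programme. The level of these transcripts is therefore often used as a reading of ERK activity, but the libraries hold no measurement of ERK phosphorylation.

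Values are FPKM, that is, fragments divided by gene length and by library size. Levels of different genes can thus be compared as far as the authors' gene lengths hold. Summed over all listed genes, FPKM ran from 417335 to 423521 in siSIRT6 and from 415892 to 421332 in siKDM5C. In control the sum was higher, from 448575 to 473190, and the main test makes no further scaling for this. The steps between low values implied library totals of 18201413 to 26910441 reads, with siSIRT6 replicate 3 the deepest. Taken over all listed genes, libraries of 1 group correlated at Pearson's r = 0.9894 to 0.994 on the log2(FPKM + 1) scale, and libraries of different groups at 0.9744 to 0.9838. Within siSIRT6 r was 0.9934 to 0.994, within siKDM5C 0.9894 to 0.9914 and within control 0.9901 to 0.9922. The siSIRT6 libraries were thus the most alike, while the test takes 1 spread from all 9 libraries. SIRT6 stood at 9.66% of control in siSIRT6 cells, and KDM5C at 19.6% of control in siKDM5C cells. Transcripts of mitochondrial DNA took 6.76% ± 0.203 of the reads in siSIRT6, 6.29% ± 0.543 in siKDM5C and 8.76% ± 0.920 in control (SD, n = 3 each), and the part of that difference in the results below was not tested. Of 6 epithelial carcinoma markers, 5 reached 1 FPKM on average and CDH1 did not. Their summed level, mostly keratins, ran from 1400 to 1510 FPKM in siSIRT6, from 696 to 856 FPKM in siKDM5C and from 1090 to 1140 FPKM in control. That of 3 mesenchymal markers, led by vimentin (VIM), ran from 803 to 852 FPKM in siSIRT6, from 722 to 940 FPKM in siKDM5C and from 541 to 663 FPKM in control. That of 4 fibroblast markers, led by the collagen gene COL1A1, ran from 42.4 to 44.4 FPKM in siSIRT6, from 16 to 18.1 FPKM in siKDM5C and from 15.9 to 16.9 FPKM in control. Not all markers that reached 1 FPKM on average followed these sums. In siKDM5C EPCAM was at 297% of control (control 0.988 FPKM) and KRT19 at 103%. KRT8, KRT18 and KRT7 were there at 52.2%, 73.8% and 61.3%. In siSIRT6 KRT7 was at 68.9% of control, while KRT8, KRT18, KRT19 and EPCAM averaged above control. CDH2 was at 54.9% of control in siKDM5C against 138% for VIM. COL3A1 was at 344% there (control 0.32 FPKM) against 97.6% for COL1A1. The fibroblast markers DCN and PDGFRB were near 0, as were all 3 acinar, both endocrine and all 3 endothelial markers measured. Of the leukocyte markers, CD14 averaged 1.70, 1.96 and 2.96 FPKM in siSIRT6, siKDM5C and control, and PTPRC was near 0. The part of these differences in the results below was not tested.

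The knockdowns did not move these genes as a block. After siSIRT6, DUSP5, DUSP6, SPRY2, SPRY4 and SPRED2 fell and DUSP4 rose. After siKDM5C, DUSP6, SPRY4, SPRED1, SPRED2 and ETV5 fell, while DUSP4, DUSP5, SPRY2 and PHLDA1 rose. DUSP6, SPRY4 and SPRED2 were lower and DUSP4 higher in both comparisons. DUSP5 and SPRY2 were lower after siSIRT6 and higher after siKDM5C. The fall of DUSP5 after siSIRT6 was small, to 89.1% of control, and did not pass under every alternative processing. Both comparisons use the same 3 control libraries. The test was limma on log2(FPKM + 1) with Benjamini-Hochberg adjustment over 16135 genes and a threshold of 0.05. In bulk RNA, fewer cells with a transcript and less transcript per cell cannot be told apart.

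These counts stand on a background of very many changes. The 10 genes were chosen with earlier results of these data known, so the counts describe them and are no independent test of the list. After siSIRT6, 6 of the 10 genes passed the test, 1 higher and 5 lower, against 50.8% of all genes tested (23.9% higher and 26.9% lower). After siKDM5C, 9 of 10 passed, 4 higher and 5 lower, against 51.5% of all genes tested (25.6% higher and 25.9% lower). Between the knockdowns, 7 of 10 passed, 2 higher and 5 lower in siSIRT6, against 39.9% of all genes tested (18.6% higher and 21.3% lower). The median log2 fold change of the 10 was -0.15 in siSIRT6 against control and -0.06 in siKDM5C against control, where the medians over all genes tested were -0.045 and -0.019. The median size regardless of sign was 0.20 and 0.37, against 0.27 for all genes tested in each comparison. The 3 knockdown libraries lay wholly above or below the 3 controls for 7 of the 10 genes in siSIRT6 (65.5% of all genes tested) and for 10 of 10 in siKDM5C (55.7%). The libraries of the 2 knockdowns did not overlap for 7 of 10 (51.7%). The filter asked for 1 FPKM in 3 libraries, and 9 of the genes reached it in all 9 libraries. DUSP4 was under 1 FPKM in every control library and entered only through the knockdown libraries, where it is higher. Its calls and its lack of overlap with control therefore add nothing to the counts, although the counts and medians above include it. Without it, 5 of the others passed after siSIRT6 and 8 after siKDM5C.

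**Figure D1:**
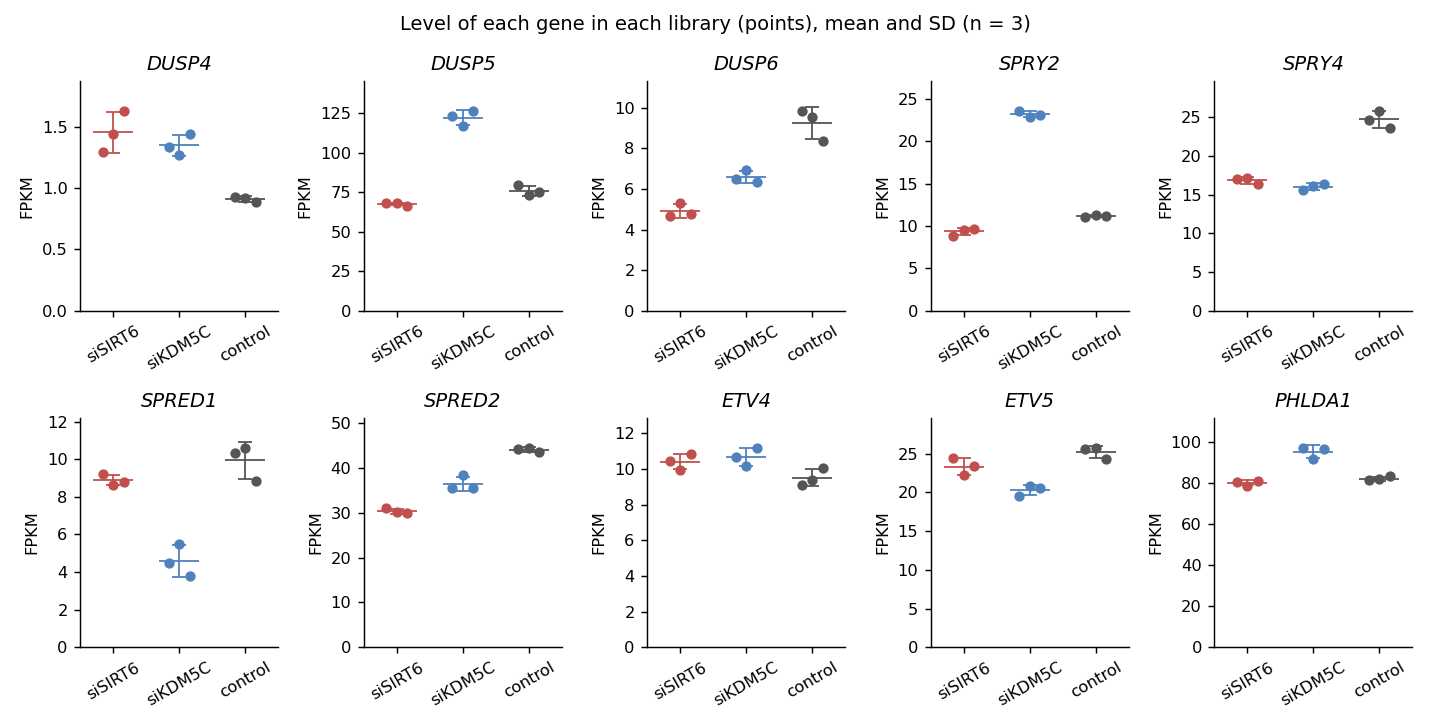
FPKM of each of the 10 genes in the 3 siSIRT6, 3 siKDM5C and 3 control libraries (points), with the group mean and SD (horizontal line and bars); each panel has its own linear axis from 0. SPRY2 and DUSP5 are highest in siKDM5C, DUSP6, SPRY4 and SPRED2 are highest in control, and SPRED1 is lowest in siKDM5C.

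The levels spanned a wide range. In control cells PHLDA1 (82.3 ± 0.977 FPKM) and DUSP5 (75.9 ± 3.36 FPKM) led, followed by SPRED2 (44.0 ± 0.533 FPKM). ETV5 (25.2 ± 0.765 FPKM) and SPRY4 (24.7 ± 1.08 FPKM) overlapped in their 3 control libraries. Next came SPRY2 at 11.2 ± 0.123 FPKM, above SPRED1, ETV4 and DUSP6, whose means ran from 9.93 to 9.26 FPKM and whose neighbours in that order overlapped. DUSP4 was last, at 0.910 ± 0.0232 FPKM. The order changed with the knockdowns. In siKDM5C cells DUSP5 stood above PHLDA1, SPRY2 above ETV5 and SPRY4, and SPRED1 below DUSP6. In siSIRT6 cells ETV4 stood above SPRY2 and SPRED1, while PHLDA1 and DUSP5 kept the first places. DUSP6 was next to last there, as it was by mean in control (SD, n = 3 throughout).

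DUSP6 encodes a cytoplasmic phosphatase specific for ERK, and is one of the most direct ERK targets. DUSP6 (ENSG00000139318, chromosome 12, 89347232 to 89353271, minus strand, GRCh38) was at 4.65, 5.31 and 4.76 FPKM in siSIRT6, at 6.47, 6.92 and 6.35 FPKM in siKDM5C, and at 9.85, 9.55 and 8.37 FPKM in control. All knockdown libraries lay below all controls, and the siSIRT6 libraries below the siKDM5C ones. The siSIRT6 mean was 53.0% of control, which was -0.80 as a log2 fold change (SE 0.07, adjusted p = 4.51e-05). The siKDM5C mean was 71.1% of control (log2 fold change -0.43, SE 0.07, adjusted p = 0.00124). At least 353 reads lay behind each value.

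DUSP5 encodes a phosphatase of the nucleus that acts on ERK. The DUSP5 gene (ENSG00000138166, chromosome 10, 110497838 to 110511544, plus strand) was at 68.0, 68.2 and 66.6 FPKM in siSIRT6, at 123, 117 and 127 FPKM in siKDM5C, and at 79.6, 73.05 and 75.0 FPKM in control. The siKDM5C libraries stood apart above all others, at 161% of control (log2 fold change 0.68, SE 0.05, adjusted p = 1.63e-05). The siSIRT6 libraries lay closely below the controls, at 89.1% (log2 fold change -0.16, SE 0.05, adjusted p = 0.0269). This small fall of DUSP5 did not pass without control replicate 1 (adjusted p = 0.104), without siSIRT6 replicate 1 (adjusted p = 0.0706), 2 (0.0684) or 3 (0.0913), or with median-of-ratios scaling (adjusted p = 0.0877); the range over alternatives was 0.0163 to 0.104. DUSP4 (ENSG00000120875, chromosome 8, 29333064 to 29350668, minus strand), a nuclear phosphatase of ERK and other MAP kinases, was far scarcer. DUSP4 was at 1.29, 1.445 and 1.63 FPKM in siSIRT6, at 1.34, 1.27 and 1.44 FPKM in siKDM5C, and at 0.929, 0.9155 and 0.884 FPKM in control. It rose after siSIRT6 (log2 fold change 0.36, SE 0.07, adjusted p = 0.00327) and after siKDM5C (0.30, SE 0.07, adjusted p = 0.00826). On the scale of log2(FPKM + 1) these values understate the ratios of FPKM, which were 160% and 148% of control.

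The Sprouty pair moved apart after siKDM5C. SPRY2 and SPRY4 encode membrane-associated inhibitors of signalling from receptor kinases to ERK. SPRY2 (ENSG00000136158, chromosome 13, 80335976 to 80340951, minus strand) was at 8.83, 9.54 and 9.67 FPKM in siSIRT6, at 23.6, 22.9 and 23.1 FPKM in siKDM5C, and at 11.1, 11.3 and 11.2 FPKM in control. No library of any group overlapped those of another. The siKDM5C mean was 207% of control (log2 fold change 0.99, SE 0.05, adjusted p = 1.48e-06), and the siSIRT6 mean 83.4% (log2 fold change -0.24, SE 0.05, adjusted p = 0.00309). SPRY4 (ENSG00000187678, chromosome 5, 142310427 to 142326455, minus strand) was at 17.05, 17.2 and 16.4 FPKM in siSIRT6, at 15.55, 16.2 and 16.4 FPKM in siKDM5C, and at 24.7, 25.8 and 23.7 FPKM in control. The knockdown libraries overlapped each other and lay below every control. SPRY4 fell to 68.2% of control after siSIRT6 (log2 fold change -0.53, SE 0.05, adjusted p = 5.65e-05) and to 64.8% after siKDM5C (-0.60, SE 0.05, adjusted p = 2.8e-05).

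Since SPRY2 and SPRY4 went opposite ways after siKDM5C, the 180 bases upstream of their RefSeq start sites (build GRCh38.p14) are shown, 5′ to 3′ on the gene's strand. Capitals mark the core of the ETS motif, GGAA, or TTCC where it lies on the other strand. The SPRY2 stretch is chr13:80341127-80341306 and the SPRY4 stretch chr5:142324248-142324427, both on the minus strand.
SPRY2: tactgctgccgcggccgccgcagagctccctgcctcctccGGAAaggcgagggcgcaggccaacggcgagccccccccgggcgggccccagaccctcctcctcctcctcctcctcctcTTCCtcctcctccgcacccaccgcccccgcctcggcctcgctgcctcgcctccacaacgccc
SPRY4: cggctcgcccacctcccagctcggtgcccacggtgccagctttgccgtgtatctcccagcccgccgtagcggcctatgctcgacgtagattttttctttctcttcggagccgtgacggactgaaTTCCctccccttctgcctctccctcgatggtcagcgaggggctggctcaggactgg
The SPRY2 stretch was 76.1% G and C and held the core at 2 places, once within the longer form CCGGAA. The SPRY4 stretch was 63.3% G and C and held the core at 1 place, without the longer form. GGAA was met on either strand in 85.5% of 35116 promoter windows of this length and CCGGAA in 12.2%, so such matches describe the letters and show no binding. RefSeq windows were found for 6 of the 10 genes, and these need not lie upstream of every annotated transcript. In GENCODE 29, all 180 bases of the PHLDA1, DUSP6 and SPRED1 windows and 38 of the SPRED2 window are annotated as UTR, and the SPRY4 window lies within the gene's annotated span. All 6 held GGAA, 2 of them (SPRY2 and PHLDA1) held CCGGAA, and 0 of 6 held the AP-1 motif TGANTCA (4.9% of all windows) or the CRE motif TGACGTCA (1.5%).

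The Spred pair differed too. SPRED1 and SPRED2 encode relatives of Sprouty that bring neurofibromin, the RAS inhibitor made by NF1, to the membrane. SPRED2 (ENSG00000198369, chromosome 2, 65310851 to 65432637, minus strand) was at 31.0, 30.1 and 29.9 FPKM in siSIRT6, at 35.5, 38.3 and 35.4 FPKM in siKDM5C, and at 44.1, 44.5 and 43.5 FPKM in control. The groups did not overlap, with siSIRT6 lowest and control highest. SPRED2 fell to 68.8% of control after siSIRT6 (log2 fold change -0.52, SE 0.05, adjusted p = 4.39e-05) and to 82.7% after siKDM5C (-0.27, SE 0.05, adjusted p = 0.0017). SPRED1 (ENSG00000166068, chromosome 15, 38252326 to 38357249, plus strand) was at 9.20, 8.65 and 8.80 FPKM in siSIRT6, at 4.45, 5.48 and 3.78 FPKM in siKDM5C, and at 10.35, 10.6 and 8.83 FPKM in control. Its siKDM5C libraries lay below all others, whereas the siSIRT6 and control libraries overlapped. The fall of SPRED1 after siKDM5C, to 46.1% of control, was the largest among the 10 genes in that comparison (log2 fold change -0.98, SE 0.11, adjusted p = 0.00014). After siSIRT6 SPRED1 did not pass (log2 fold change -0.14, 95% interval -0.39 to 0.11, adjusted p = 0.311), although it did once the trend with GC content and gene length was taken out (-0.14, adjusted p = 0.0478, range over alternatives 0.0478 to 0.565).

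The ETS factors moved by small amounts. ETV5 (ENSG00000244405, chromosome 3, 186046308 to 186110318, minus strand) was at 24.4, 22.2 and 23.35 FPKM in siSIRT6, at 19.5, 20.85 and 20.5 FPKM in siKDM5C, and at 25.6, 25.8 and 24.4 FPKM in control. Its siKDM5C libraries were the lowest, at 80.4% of control (log2 fold change -0.30, SE 0.05, adjusted p = 0.00161). After siSIRT6 ETV5 overlapped control and did not pass (-0.11, 95% interval -0.23 to 0.01, adjusted p = 0.109), although it did once that trend was taken out (-0.14, adjusted p = 0.0236, range 0.0236 to 0.328). ETV4 (ENSG00000175832, chromosome 17, 43527844 to 43579620, minus strand) was at 10.5, 9.96 and 10.8 FPKM in siSIRT6, at 10.7, 10.2 and 11.2 FPKM in siKDM5C, and at 9.10, 9.41 and 10.1 FPKM in control. Its values were a little above control on average, and the siSIRT6 libraries overlapped the controls while the siKDM5C libraries did not. ETV4 passed in neither comparison, with a log2 fold change of 0.12 after siSIRT6 (95% interval -0.01 to 0.25, adjusted p = 0.118) and of 0.15 after siKDM5C (0.02 to 0.28, adjusted p = 0.0553). The siKDM5C value of ETV4 did pass without control replicate 3 (0.19, adjusted p = 0.0375), without siKDM5C replicate 2 (0.18, adjusted p = 0.0347), with a replicate block (adjusted p = 0.0353) and among protein-coding genes alone (adjusted p = 0.047), with a range of 0.0347 to 0.173. The siSIRT6 value of ETV4 passed once that trend was taken out (0.12, adjusted p = 0.0368, range 0.0368 to 0.308).

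PHLDA1 encodes a pleckstrin homology-like protein whose transcript is induced by growth factor signalling. PHLDA1 (ENSG00000139289, chromosome 12, 76025447 to 76033932, minus strand) was at 80.75, 78.9 and 81.1 FPKM in siSIRT6, at 97.5, 91.8 and 97.0 FPKM in siKDM5C, and at 81.6, 82.0 and 83.4 FPKM in control. The siKDM5C libraries lay above the others, at 116% of control (log2 fold change 0.21, SE 0.04, adjusted p = 0.00436). After siSIRT6 PHLDA1 did not pass (-0.04, 95% interval -0.14 to 0.06, adjusted p = 0.515), although its 3 libraries lay just below the 3 controls.

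**Figure D2:**
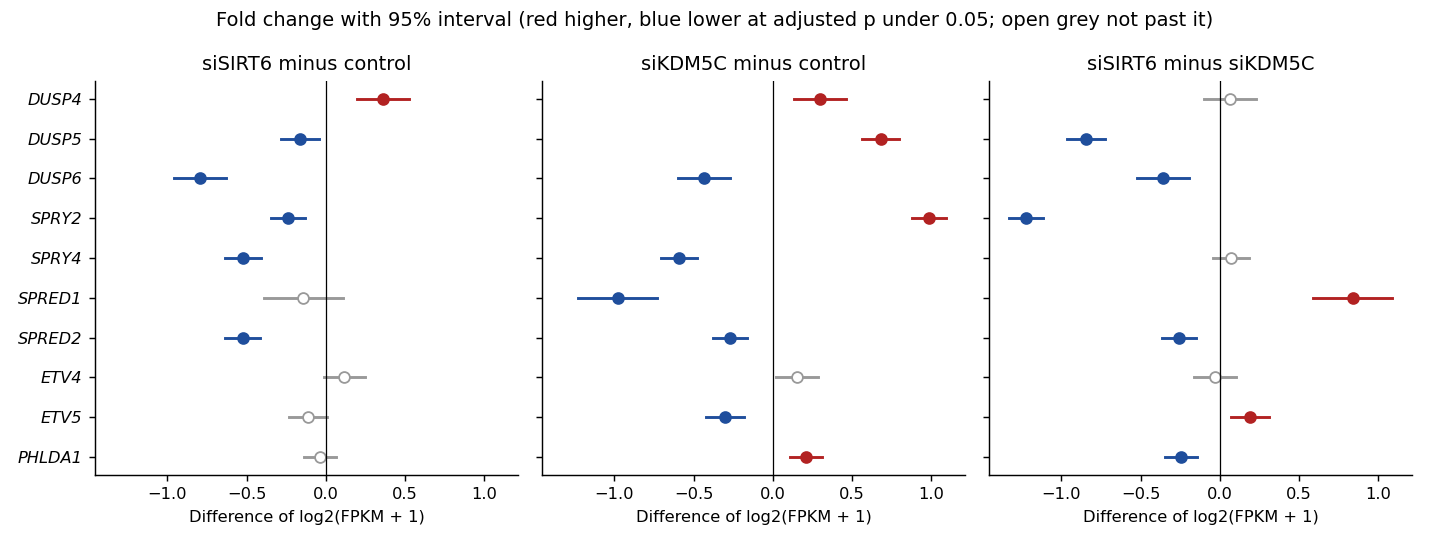
Difference of mean log2(FPKM + 1) with its 95% interval for each of the 10 genes in siSIRT6 minus control, siKDM5C minus control and siSIRT6 minus siKDM5C; red is higher and blue lower at an adjusted p under 0.05, and open grey points did not pass. SPRY2 and DUSP5 lie left of 0 in siSIRT6 minus control and right of 0 in siKDM5C minus control, and SPRY4, DUSP4 and ETV4 did not pass between the knockdowns.

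In the direct comparison of the knockdowns the differences use no control library, while the spread behind the errors and p-values is that of all 9 libraries. Of the 10 genes SPRY2 differed most, by -1.23 on the log2 scale in siSIRT6 against siKDM5C (SE 0.05, adjusted p = 1.29e-06). DUSP5 followed at -0.85 (SE 0.05, adjusted p = 1.11e-05). SPRED1 was higher in siSIRT6 by 0.84 (SE 0.11, adjusted p = 0.000552). DUSP6 (-0.36, adjusted p = 0.00469), SPRED2 (-0.26, adjusted p = 0.00324) and PHLDA1 (-0.25, adjusted p = 0.0028) were lower in siSIRT6. ETV5 was higher in siSIRT6 (0.19, adjusted p = 0.0202), but not past the threshold without siSIRT6 replicate 1 (adjusted p = 0.0842), siSIRT6 replicate 3 (0.0654) or siKDM5C replicate 1 (0.064), with a range over alternatives of 0.0031 to 0.0842. DUSP4 (0.06, 95% interval -0.10 to 0.23), SPRY4 (0.07, -0.04 to 0.18) and ETV4 (-0.03, -0.16 to 0.10) did not pass.

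Ratios of paralogues within a library do not depend on scaling between libraries. DUSP5 over DUSP6, a nuclear over a cytoplasmic ERK phosphatase, was 13.8 ± 0.907 in siSIRT6, 18.6 ± 1.53 in siKDM5C and 8.23 ± 0.670 in control. This ratio covers only these 2 genes of the family. SPRY2 over SPRY4 was 0.554 ± 0.0367 in siSIRT6, 1.45 ± 0.0608 in siKDM5C and 0.454 ± 0.0173 in control, so SPRY2 was the more abundant of the pair in siKDM5C cells and SPRY4 in the others. SPRED2 over SPRED1 was 3.41 ± 0.0547 in siSIRT6, 8.11 ± 1.20 in siKDM5C and 4.46 ± 0.401 in control. ETV5 over ETV4 was 2.24 ± 0.0836 in siSIRT6, 1.90 ± 0.126 in siKDM5C and 2.66 ± 0.208 in control. No group's libraries overlapped another's in any of these 4 ratios. A two-sided exact permutation test of 3 against 3 libraries gave p = 0.1 for each, the smallest it can give. Without overlap that value is fixed, so the test adds nothing to the lack of overlap. How many other gene pairs separate in this way was not counted. Of all single genes tested, 65.5% did so in siSIRT6 against control, 55.7% in siKDM5C against control and 51.7% between the knockdowns. Summed over DUSP4, DUSP5 and DUSP6, the level was 74.0 ± 1.00 FPKM in siSIRT6, 130 ± 4.49 FPKM in siKDM5C and 86.1 ± 3.76 FPKM in control, nearly all of it DUSP5. SPRED1 and SPRED2 together came to 39.2 ± 0.884 FPKM in siSIRT6, 41.0 ± 2.47 FPKM in siKDM5C and 54.0 ± 1.49 FPKM in control (SD, n = 3 throughout).

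**Figure D3:**
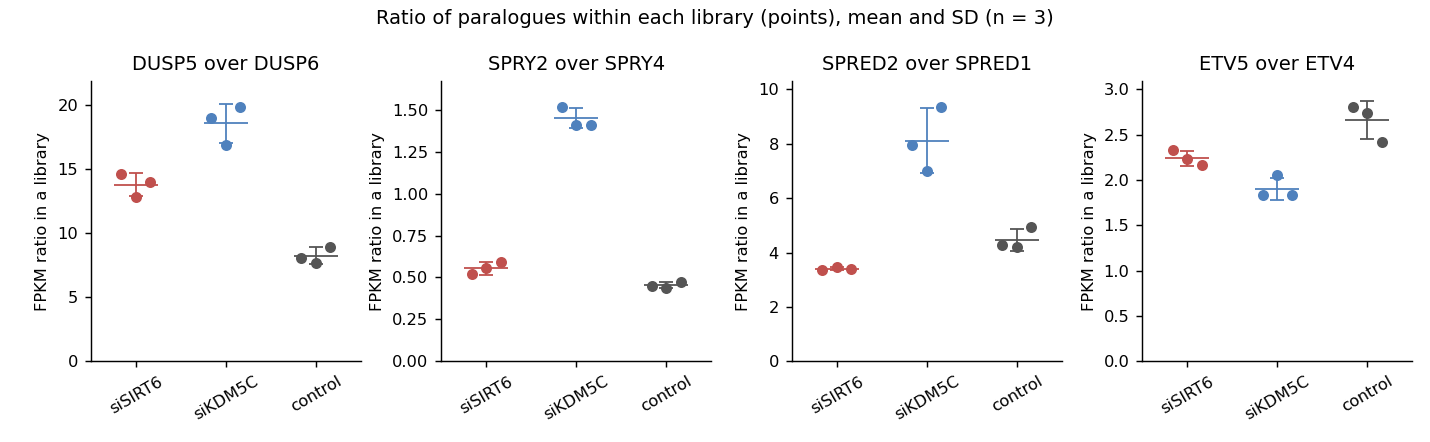
Ratio of FPKM of paralogues in each of the 3 siSIRT6, 3 siKDM5C and 3 control libraries (points), with mean and SD, on linear axes from 0. SPRY2 over SPRY4 is above 1 in the 3 siKDM5C libraries and below 1 in the 6 others, and DUSP5 over DUSP6 is lowest in control.

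Several of these genes overlap other annotated genes, and reads of overlapping genes may be shared, since the library kit keeps strand but the sources used here do not give the strand counted. An antisense gene that overlaps DUSP6 (ENSG00000274021) was at 2.68 ± 0.241 FPKM in siSIRT6, 4.18 ± 0.251 FPKM in siKDM5C and 5.46 ± 0.147 FPKM in control, and fell with DUSP6 in both comparisons (log2 fold changes -0.81, adjusted p = 2.05e-05, and -0.32, adjusted p = 0.00352). PHLDA1-AS1, on the strand opposite PHLDA1, was listed higher than PHLDA1 itself. It stood at 425 ± 17.4 FPKM in siSIRT6, 593 ± 74.8 FPKM in siKDM5C and 359 ± 24.4 FPKM in control, and rose after siKDM5C (0.72, adjusted p = 0.000322). A short RNA gene opposite SPRY4 (ENSG00000277968) fell too, to 4.19 ± 2.67 FPKM in siSIRT6 and 4.07 ± 0.975 FPKM in siKDM5C, against 9.65 ± 2.24 FPKM in control (adjusted p = 0.0166 and 0.0214). Another opposite SPRY4 (ENSG00000274721) was at 3.15 ± 1.4 FPKM in siSIRT6, 2.74 ± 1.33 FPKM in siKDM5C and 3.69 ± 1.32 FPKM in control and did not pass (adjusted p = 0.661 and 0.417). DGKG, which overlaps ETV5 on its own strand, was at 1.12 ± 0.0641 FPKM in siSIRT6, 1.06 ± 0.0491 FPKM in siKDM5C and 1.34 ± 0.0649 FPKM in control, and was lower after siKDM5C (-0.18, adjusted p = 0.0405). SPRY4-AS1 (0.319, 0.685 and 0.285 FPKM on average in siSIRT6, siKDM5C and control) and ETV5-AS1 (0.144, 0.152 and 0.354 FPKM) were too low to be tested. ETV4 overlaps the helicase gene DHX8, which was at 4.96 ± 0.156 FPKM in siSIRT6, 5.70 ± 0.260 FPKM in siKDM5C and 5.61 ± 0.231 FPKM in control (SD, n = 3 throughout). DHX8 was lower after siSIRT6 (-0.15, adjusted p = 0.0424) and did not pass after siKDM5C (0.02, adjusted p = 0.774). No annotated gene with deposited values overlaps DUSP4, DUSP5, SPRY2 or SPRED1.

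Of 7 other phosphatases of the same family, 5 were tested, and 4 were lower and 0 higher in each comparison, where 26.9% of all genes tested were lower after siSIRT6 and 25.9% after siKDM5C. The medians were -0.465 after siSIRT6 and -0.40 after siKDM5C. DUSP2 and DUSP9 were under 1 FPKM in every siSIRT6 library and entered the test only through the other groups, where they are higher. Their calls after siSIRT6 therefore add nothing to the count. In siKDM5C, DUSP9 reached 1 FPKM in every library and DUSP2 did not, and both were lower than control (adjusted p = 0.00106 and 0.0167). Of the other 3, DUSP1 and DUSP10 were lower in both comparisons and DUSP7 passed in neither. DUSP1, which acts mainly on p38 and JNK, was at 52.7 ± 0.844 FPKM in siSIRT6, 38.2 ± 4.53 FPKM in siKDM5C and 63.4 ± 5.23 FPKM in control (adjusted p = 0.042 and 0.000278). DUSP10, a phosphatase of p38 and JNK, was at 3.69 ± 0.174 FPKM in siSIRT6, 4.53 ± 0.151 FPKM in siKDM5C and 5.47 ± 0.284 FPKM in control. DUSP9 was at 0.664 ± 0.0525 FPKM in siSIRT6, 1.44 ± 0.418 FPKM in siKDM5C and 2.945 ± 0.168 FPKM in control. DUSP2 was at 0.558 ± 0.205 FPKM in siSIRT6, 1.155 ± 0.211 FPKM in siKDM5C and 1.83 ± 0.1004 FPKM in control (SD, n = 3 throughout). DUSP8 and DUSP16 were not tested.

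**Figure D4:**
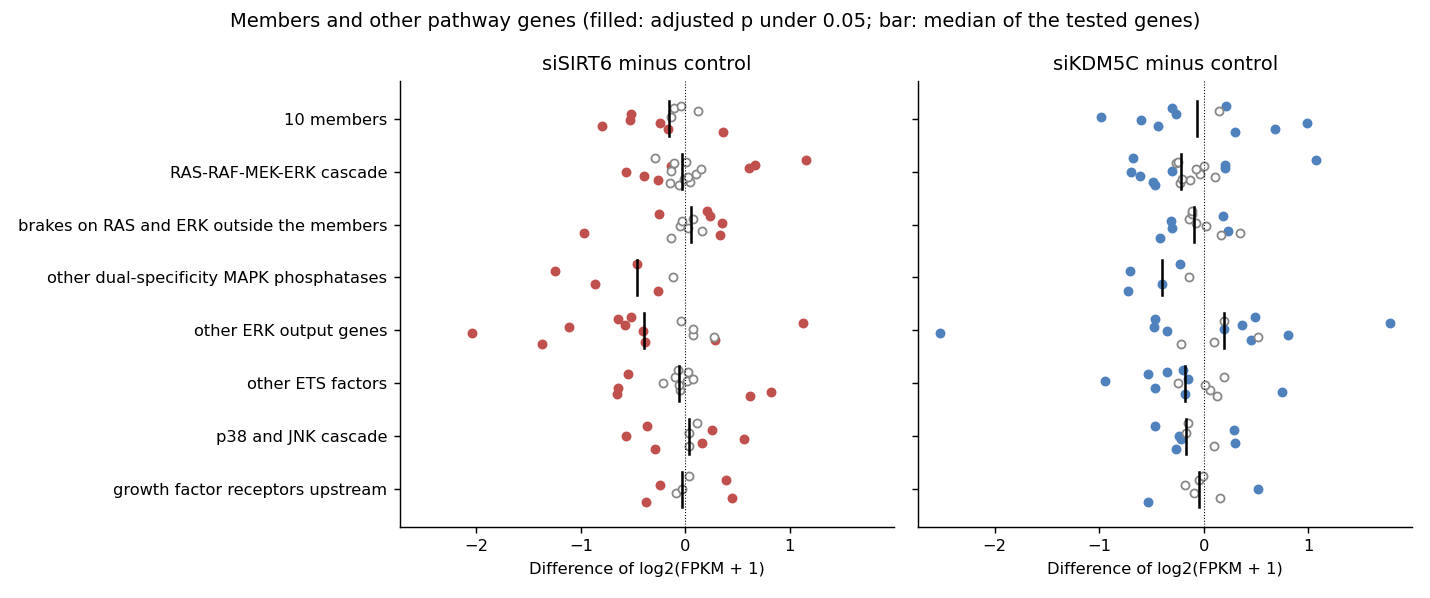
Difference of mean log2(FPKM + 1) in siSIRT6 minus control and siKDM5C minus control for the 10 genes and for the tested genes of 7 further lists of the pathway; filled points had an adjusted p under 0.05 and the black bar is the median. The other MAPK phosphatases lie left of 0 in both panels, with medians of -0.465 and -0.40, while the other ERK output genes have medians on opposite sides of 0, at -0.39 and 0.20.

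Of 16 further genes induced by ERK, 14 were tested. After siSIRT6, 8 fell and 2 rose (median -0.39), where 26.9% of all genes tested were lower and 23.9% higher. After siKDM5C, 4 fell and 6 rose (median 0.20), where 25.9% of all genes tested were lower and 25.6% higher. The cyclin D1 gene CCND1 was at 48.7 ± 0.187 FPKM in siSIRT6, 34.8 ± 1.25 FPKM in siKDM5C and 204.5 ± 15.5 FPKM in control, the largest fall of the list in both. The immediate early factor EGR1 fell to 1.30 ± 0.112 FPKM in siSIRT6, against 4.96 ± 0.580 FPKM in control, and was at 4.14 ± 0.621 FPKM in siKDM5C, where it did not pass (adjusted p = 0.112). The urokinase receptor gene PLAUR was at 3.09 ± 0.320 FPKM in siSIRT6, 5.35 ± 0.545 FPKM in siKDM5C and 7.81 ± 0.136 FPKM in control. MYC was at 19.7 ± 0.834 FPKM in siSIRT6, where it did not pass, and rose to 33.4 ± 1.05 FPKM in siKDM5C, against 18.6 ± 1.26 FPKM in control. The chromatin protein gene HMGA1 was at 599 ± 17.2 FPKM in siSIRT6, 1209 ± 71.05 FPKM in siKDM5C and 861 ± 46.6 FPKM in control, lower and higher than control as SPRY2 was. The collagenase gene MMP1 rose in both, to 7.11 ± 0.222 FPKM in siSIRT6 and 11.8 ± 1.17 FPKM in siKDM5C, against 2.715 ± 0.0896 FPKM in control (SD, n = 3 throughout).

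The transcripts of the cascade itself changed in both directions. Of 19 listed, 18 were tested, with 3 higher and 4 lower after siSIRT6 (38.9% past the threshold, against 50.8% of all genes tested; median -0.03) and 3 higher and 6 lower after siKDM5C (9 of 18 past the threshold, against 51.5%; median -0.22). MAP2K1, which encodes the kinase MEK1, fell to 39.4 ± 0.648 FPKM in siSIRT6 and 36.1 ± 1.42 FPKM in siKDM5C, against 59.1 ± 1.055 FPKM in control. PTPN11, which encodes the phosphatase SHP2 that promotes RAS activation, rose to 28.9 ± 0.495 FPKM in siSIRT6 and 27.55 ± 2.94 FPKM in siKDM5C, against 12.5 ± 0.215 FPKM in control. The adaptor gene SHC1 rose to 246 ± 5.46 FPKM in siSIRT6 and 177.5 ± 8.16 FPKM in siKDM5C, against 154 ± 2.31 FPKM in control. MAPK3, which encodes ERK1, rose to 14.1 ± 0.527 FPKM in siSIRT6 and 10.4 ± 0.962 FPKM in siKDM5C, against 8.93 ± 0.642 FPKM in control (adjusted p = 0.000231 and 0.0485). The scaffold gene KSR1 fell to 2.43 ± 0.104 FPKM in siSIRT6 and 1.95 ± 0.0579 FPKM in siKDM5C, against 3.51 ± 0.157 FPKM in control. FRS2, an adaptor of FGF receptors, was at 5.015 ± 0.173 FPKM in siSIRT6, where it did not pass, and fell to 3.66 ± 0.803 FPKM in siKDM5C, against 6.40 ± 0.809 FPKM in control (SD, n = 3 throughout).

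Other brakes on RAS and ERK went in mixed directions. Of 13 listed, 12 were tested, with 4 higher and 2 lower after siSIRT6 (median 0.05; 50.8% of all genes tested passed) and 2 higher and 3 lower after siKDM5C (median -0.09; 51.5%). NF1, the partner of the Spred proteins, was at 4.62 ± 0.155 FPKM in siSIRT6, 3.63 ± 0.292 FPKM in siKDM5C and 5.20 ± 0.546 FPKM in control, and fell after siKDM5C (log2 fold change -0.42, adjusted p = 0.00203) but did not pass after siSIRT6 (-0.14, adjusted p = 0.164). SPRED1 also passed only after siKDM5C, where 25.9% of all genes tested were lower. SPRED2 fell in both comparisons, by more after siSIRT6 (log2 fold change -0.52) than after siKDM5C (-0.27). The RAS GTPase-activating gene RASA2 was at 2.55 ± 0.146 FPKM in siSIRT6, 8.01 ± 1.92 FPKM in siKDM5C and 6.04 ± 1.23 FPKM in control, lower after siSIRT6 (-0.97, adjusted p = 0.00133). ERRFI1, an inhibitor of the EGF receptor, rose to 288 ± 8.48 FPKM in siSIRT6, against 226 ± 8.65 FPKM in control, and was at 215 ± 14.3 FPKM in siKDM5C. Of the remaining family members, SPRY1 was at 3.475 ± 0.195 FPKM in siSIRT6, 3.97 ± 0.516 FPKM in siKDM5C and 4.34 ± 0.305 FPKM in control, lower after siSIRT6 (adjusted p = 0.0301). SPRED3 was at 3.26 ± 0.265 FPKM in siSIRT6, 2.41 ± 0.146 FPKM in siKDM5C and 2.69 ± 0.141 FPKM in control, higher after siSIRT6 (adjusted p = 0.0291; SD, n = 3 throughout). Neither passed after siKDM5C, and SPRY3 was not tested.

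Among other ETS factors, 13 of 15 listed were tested. After siSIRT6, 2 rose and 3 fell (median -0.06), where 23.9% of all genes tested were higher and 26.9% lower. After siKDM5C, 1 rose and 7 fell (median -0.18), where 25.6% were higher and 25.9% lower. One of these 7, FLI1, was under 1 FPKM in every knockdown library and entered the test only through the controls. ETV1, the closest relative of ETV4 and ETV5, rose to 8.12 ± 0.180 FPKM in siSIRT6, against 4.92 ± 0.197 FPKM in control, and was at 5.51 ± 0.924 FPKM in siKDM5C (adjusted p = 0.276). ETS2 rose to 40.3 ± 0.478 FPKM in siSIRT6 and 38.2 ± 1.73 FPKM in siKDM5C, against 22.3 ± 0.543 FPKM in control. ETS1 fell to 42.6 ± 0.598 FPKM in siSIRT6 and 59.6 ± 3.41 FPKM in siKDM5C, against 67.7 ± 0.889 FPKM in control. The epithelial factor ELF3 fell to 1.48 ± 0.0496 FPKM in siKDM5C, against 3.78 ± 0.170 FPKM in control, and was at 3.84 ± 0.188 FPKM in siSIRT6. The repressor gene ETV3 fell to 5.12 ± 0.153 FPKM in siSIRT6 and 5.18 ± 0.596 FPKM in siKDM5C, against 7.935 ± 0.179 FPKM in control (SD, n = 3 throughout). Of the relatives of PHLDA1, PHLDA3 fell after siKDM5C to 3.74 ± 0.281 FPKM, against 5.50 ± 0.162 FPKM in control (n = 3), and PHLDA2 was not tested.

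For the most abundant phosphatase, Sprouty or Spred gene and ETV factor, the protein-coding genes with the most similar profile over the 9 libraries were found by Pearson's r of log2(FPKM + 1). Those for DUSP5 were MYBL2 (r = 0.996), TMEM25 (r = 0.996) and JAG2 (r = 0.994). The cell cycle factor gene MYBL2, for example, averaged 18.2 FPKM in siSIRT6, 48.4 FPKM in siKDM5C and 22.6 FPKM in control. Those for SPRED2 were DCP1A (r = 0.995), TP53BP2 (r = 0.993) and ZNF706 (r = 0.992), and those for ETV5 were KBTBD6 (r = 0.993), KDM1B (r = 0.983) and ZNF677 (r = 0.983). These coefficients mostly follow the differences between the 3 groups, and r of at least 0.95 was reached by 153 of 11484 genes for DUSP5, 253 for SPRED2 and 77 for ETV5.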

How the data were processed

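The deposited files hold 1 FPKM value per library and gene, made by the authors. Per the submitters' processing notes the tools were Trimmomatic, HISAT2, Cufflinks and HTSeq with build hg38; no annotation, version or counted strand is named. With gene lengths from GENCODE 29, the FPKM steps gave whole reads (tolerance 0.01) for 58.93% of genes, and such steps gave the depths. For the other genes, every member among them, the shortest length that gave whole reads was taken. Their read numbers depend on that length, and the authors' gene models need not be those of GENCODE 29. A gene of 1 kilobase with 3 reads would have 0.1115 to 0.1648 FPKM; such floors cover counting error only. Symbols came from a gene name table (36659 of 36753 identifiers) and coordinates from GENCODE 29.

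Genes were kept at 1 FPKM or more in 3 libraries or more, which left 16135. The test was limma 3.58.1 with a trend (R 4.3.3) on log2(FPKM + 1), all 9 libraries in 1 fit without further scaling or block, two-sided, with Benjamini-Hochberg adjustment over all genes and a threshold of 0.05. The script was tested on simulated data. Fold changes on this scale understate those of low genes. Depth varied between libraries, and deeper libraries have smaller counting error.

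The members and lists were chosen with earlier results of these data known. All 10 members are named; of each list, up to 4 genes with the smallest adjusted p per comparison were eligible, and all genes of lists of 7 or fewer. ELK3 counts in both the ERK output and the ETS list. SPRY1, SPRED3 and ETV1 were added as relatives of the members after their values were seen. Promoter sequences are from RefSeq (GRCh38.p14), and 2 windows free of annotated UTR are printed. Alternatives changed the pseudocount, filter, scaling, libraries, GC and length trend or model (voom on recovered reads). Restricting to protein-coding genes was added after seeing the data.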

Additional observations from a re-analysis of the deposited data

How the results depend on the processing

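Of 30 values (10 genes in 3 comparisons), 22 kept their direction and their side of the threshold in each of the 18 alternatives that tested them. DUSP4 was tested in all of these but the one with the higher filter. The number of the 10 genes past the threshold was 5 to 9 in siSIRT6 against control (6 as reported), 8 to 10 in siKDM5C against control (9) and 6 to 7 in siSIRT6 against siKDM5C (7). The count of 9 came with the trend of GC content and length removed. Leaving out 1 library at a time gave 5 to 6, 9 to 10 and 6 to 7. The losses and gains concern DUSP5, SPRED1, ETV4 and ETV5, with values given beside them. PHLDA1 in siSIRT6 against control turned to 0.005 with median-of-ratios scaling, and ETV4 in siSIRT6 against siKDM5C to 0.003 with that scaling and 0.023 once the trend with GC content and length was taken out. None of these passed. With at least 5 FPKM, 9446 genes were tested and fewer passed, 5367 in siSIRT6 against control and 5418 in siKDM5C against control (8194 and 8308 as reported); DUSP4 is not tested there. Deviations of same-numbered libraries from their group means correlated at -0.229 to 0.252. Differently numbered libraries were not compared, so this does not settle whether the numbers pair samples. With the replicate number as a block, 6, 10 and 7 of the 10 genes passed. DUSP4 rests on the fewest reads, at least 120 per library, which limits its precision.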

Other observations

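Lists next to the ERK pathway gave no common direction. Of 10 genes of the p38 and JNK cascades, 9 were tested, with 3 higher and 3 lower after siSIRT6 (median 0.04; 50.8% of all genes tested passed) and 2 higher and 4 lower after siKDM5C (median -0.17; 51.5%). MAPK11, which encodes a p38 kinase, rose to 14.7 ± 0.624 FPKM in siSIRT6, against 9.65 ± 0.278 FPKM in control, and fell to 8.17 ± 0.795 FPKM in siKDM5C. MAP2K3, a kinase upstream of p38, fell to 30.2 ± 0.716 FPKM in siSIRT6 and 38.2 ± 3.42 FPKM in siKDM5C, against 45.1 ± 2.53 FPKM in control. Of 10 growth factor receptors, 7 were tested, with 2 higher and 2 lower after siSIRT6 and 1 higher and 1 lower after siKDM5C, against the same shares of all genes tested. EGFR fell to 55.1 ± 0.824 FPKM in siSIRT6 and 49.2 ± 4.51 FPKM in siKDM5C, against 71.8 ± 6.25 FPKM in control. FGFR1 rose to 6.97 ± 0.232 FPKM in siKDM5C and was at 4.43 ± 0.0605 FPKM in siSIRT6, against 4.54 ± 0.0741 FPKM in control (SD, n = 3 throughout).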
